A study of Mus musculus with 7 samples.

Results

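The gamma protocadherin cluster is a run of neighboring genes on mouse chromosome 18 that encode single-pass cell-surface adhesion proteins. It was examined here through the Srsf3 eCLIP peaks that carry one of 10 gene names: Gm42416, Pcdhga1, Pcdhga2, Pcdhga8, Pcdhga9, Pcdhga10, Pcdhgb1, Pcdhgb4, Pcdhgb5 and Pcdhgb7. Peaks were selected by gene name on the plus strand of chromosome 18, and 48 of 14780 distinct intervals met the rule, 33 of 8384 intervals after PDGF-AA and 15 of 6396 without ligand. All 48 carried the name Gm42416, and the other names stand only in the names that the peak caller gave its peaks. Because the members were chosen from these same 2 peak lists, their counts are given as a description and no test was run on them.

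The study asked which transcripts the splicing factor Srsf3 contacts before and after PDGF receptor signaling. Enhanced UV-crosslinking and immunoprecipitation (eCLIP) recovers short RNA fragments crosslinked to a protein and maps where it sat. The cells were iMEPM, a single immortalized line of mouse embryonic palatal mesenchyme, treated with 10 ng/mL PDGF-AA ligand for 1 hr (+PDGF-AA) or left unstimulated (-PDGF-AA), in both cases after serum starvation. Among the 7 libraries there was 1 Srsf3 immunoprecipitation of +PDGF-AA cells, titled replicate 2, and there were 2 of -PDGF-AA cells, with 1 input and 1 IgG library per condition. Peaks were called once per condition, so each condition has 1 list, made from more libraries without ligand than with it, and no difference below could be checked against replicates. More libraries did not mean deeper ones. In the paper's accounting the +PDGF-AA library had more mapped reads than either -PDGF-AA library. A deposited peak is an interval with names and no read count, so the depth behind a peak is unknown and a stronger signal cannot be told apart from a more abundant transcript. Of 11 mesenchyme genes used as a check of the cell type, 9 had a site with PDGF-AA and 10 without. None of 7 epithelial and none of 4 endothelial genes had a site in either list, and of 6 neural genes Map2, which encodes a microtubule-associated protein, had 6 sites with PDGF-AA and 4 without.

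Each gamma protocadherin gene begins at its own promoter with a large variable exon, which encodes the extracellular cadherin repeats, the membrane-spanning stretch and the first part of the cytoplasmic tail. Splicing joins that exon to a small set of constant exons at the 3′ end of the cluster, which are shared by all of the genes and encode the common end of the tail. Because a transcript from an upstream promoter runs through every variable exon downstream of it before splicing, each variable exon is intronic RNA for the genes that start before it. In neurons, the choice of promoter in each cell gives neighboring cells different surface labels used in self-recognition. SR proteins such as Srsf3 bind exonic and intronic sequence and influence which splice sites are joined.

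In the GENCODE M39 annotation of GRCm39 the cluster held 22 genes, of which 12 were of the a type, 7 of the b type and 3 of the c type, over 180.0 kb. Their variable exons were 2499 to 2961 nt long. The 3 constant exons lay at chr18:37958074-37958132, chr18:37966315-37966406 and chr18:37972956-37975014.

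Most Srsf3 sites in the cluster lay in variable exons after PDGF-AA treatment, and all of them lay outside exons without ligand. Overlapping intervals were merged into sites, which gave 16 sites with PDGF-AA and 8 without ligand. In the +PDGF-AA list 13 of 16 sites (81.2%, exact Clopper-Pearson 95% interval 54.4 to 96.0%) lay in a variable exon. In the -PDGF-AA list 0 of 8 sites did (interval 0.0 to 36.9%). The intervals give counting error only and treat sites as independent, although some sites adjoin each other. They hold no spread between libraries. These 13 sites fell in the variable exons of 10 of the 22 genes. No site of either list lay in a constant exon. Of the remaining +PDGF-AA sites, 1 lay in the single large exon of Pcdhb21, a gene of the neighboring beta cluster, and 2 lay in no exon of the plus strand. Counting Pcdhb21, 87.5% of +PDGF-AA sites were exonic, beside 86.8% of all 8263 sites of that list. In the -PDGF-AA list 0.0% of the cluster's sites were exonic, beside 59.5% of all 6321 sites. The exonic share of the cluster in the +PDGF-AA list was therefore close to that of its list, and the exonic share in the -PDGF-AA list lay below that of its list.

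**Figure D1:**
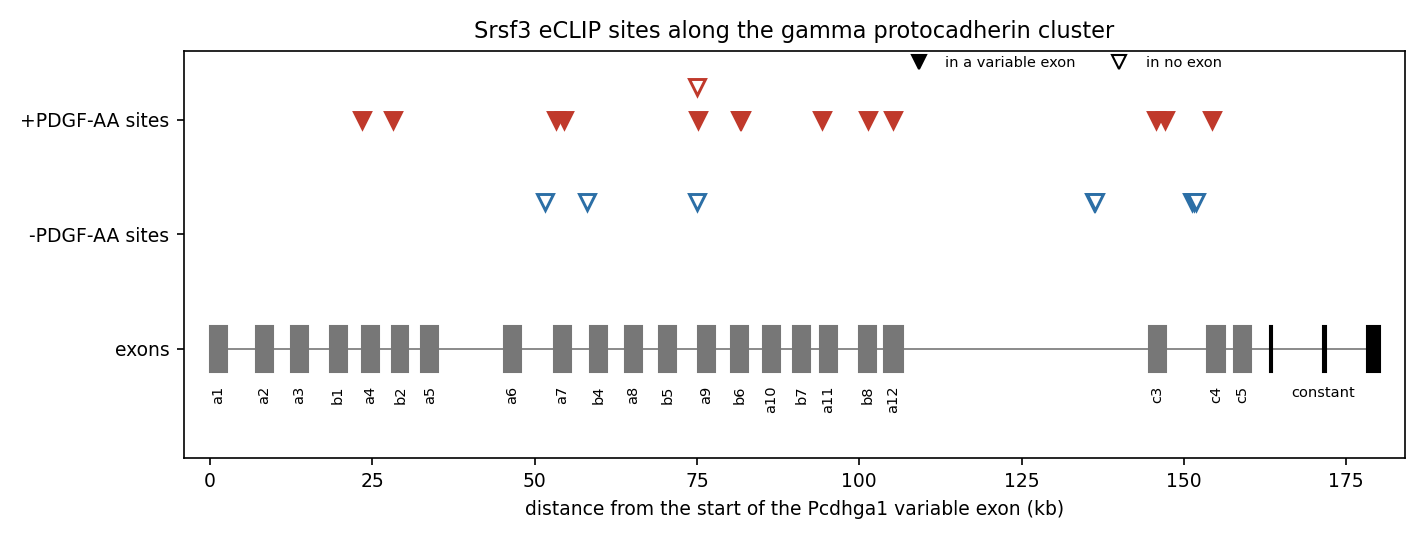
Srsf3 eCLIP sites along the gamma protocadherin cluster. The horizontal axis gives the distance in kb from the start of the Pcdhga1 variable exon, grey boxes are variable exons (names shortened to their last letters and number), black boxes are constant exons (the shorter ones drawn at a minimum width), and triangles are +PDGF-AA sites (red, above) and -PDGF-AA sites (blue, below), filled where most of the site lies in a variable exon and open, set slightly higher, where it lies in no exon. The 13 filled triangles are all +PDGF-AA sites, and the 8 -PDGF-AA sites are all open. The 2 +PDGF-AA sites upstream of Pcdhga1 are not drawn.

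The pair of lists met at a single position. A +PDGF-AA site at chr18:37869757-37869849 covered the whole of a -PDGF-AA site at chr18:37869800-37869847, with 48 nt in common, in the intron sequence that ends 127 and 129 nt before the variable exon of Pcdhga9. That was 1 of 16 +PDGF-AA sites (6.25%), beside 29.4% of all sites of that list, and 1 of 8 -PDGF-AA sites (12.5%), beside 38.7% of all sites of that list. The share in common was below the background in both lists, over few sites. In all, the +PDGF-AA sites spanned 708 nt and the -PDGF-AA sites 568 nt. The +PDGF-AA sites were 29 to 93 nt wide with a median of 37.0 nt, and the -PDGF-AA sites were 48 to 113 nt wide with a median of 70.5 nt, against medians of 49.0 and 48.0 nt over all sites of the +PDGF-AA and -PDGF-AA lists. Wider sites were thus found without ligand in this cluster, whereas the lists as a whole had nearly the same median width.

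The bound variable exons were spread over all 3 types of gene, with 5 of 12 a-type, 3 of 7 b-type and 2 of 3 c-type exons holding a +PDGF-AA site. Among the a-type genes, Pcdhga4 had a site at chr18:37818312-37818359, in its 5′ UTR, beginning 141 nt before the start codon. Pcdhga7 had a pair of sites in its coding sequence, at chr18:37848178-37848210 and chr18:37849380-37849452. Pcdhga9 had a site at chr18:37869973-37870003, which covered the first bases of its annotated variable exon and began 200 nt before its start codon. This one lay a short distance downstream of the position that both lists share. Pcdhga11 had a coding site at chr18:37889126-37889155 and Pcdhga12 had one at chr18:37900091-37900141.

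Among the b-type genes, Pcdhgb2 had a 5′ UTR site at chr18:37822974-37823005, which began 37 nt before its start codon. Pcdhgb6 had neighboring coding sites at chr18:37876506-37876543 and chr18:37876552-37876586, and Pcdhgb8 had a coding site at chr18:37896157-37896208. The only Pcdhgb8 transcript in the annotation has an in-frame stop at codon 744 of the 807 codons of its variable exon in the reference genome, and the site lay upstream of that stop.

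The c-type genes are set apart from the others at the 3′ end of the cluster, next to the constant exons, and their variable exons are expressed broadly in neurons. Pcdhgc3 had coding sites at chr18:37940519-37940554 and chr18:37941900-37941937, and Pcdhgc4, which neurons require for survival in mice, had one at chr18:37949132-37949160. Pcdhgc5 had no site in either list, and no gene or peak name pointed to it. In total 10 of the 13 variable-exon sites were coding and 3 were in 5′ UTRs, and none covered a start codon. Coding sequence makes up most of each variable exon, as in Pcdhga4 with 2418 of 2608 nt. The same split was not computed here over all sites of the list.

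Within the protein, 9 of the 10 coding sites lay before the predicted transmembrane stretch, taken as the window of 19 residues with the highest mean hydropathy. That stretch began between residues 681 and 696 of variable exons that encode 788 to 857 residues. Most of the coding part thus lies before it, and whether the sites favor that part was not tested. Their codons began at residue 45 in Pcdhga11, 62 and 462 in Pcdhga7, 183 in Pcdhgc4, 307 in Pcdhgc3, 308 in Pcdhga12, 405 and 420 in Pcdhgb6 and 409 in Pcdhgb8. These residues belong to the extracellular part, which carries the cadherin repeats. The second Pcdhgc3 site was the exception. It covered the codons of residues 767 to 779 of the 810 residues that the exon encodes, past the predicted stretch at residues 696 to 714, and ended 93 nt before the 5′ splice site through which the exon is joined to the constant exons. It was the closest of the 13 sites to a 5′ splice site. The distances of the other variable-exon sites to that end ran from 975 nt, for the second site of Pcdhga7, to 2593 nt, for that of Pcdhga9.

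**Figure D2:**
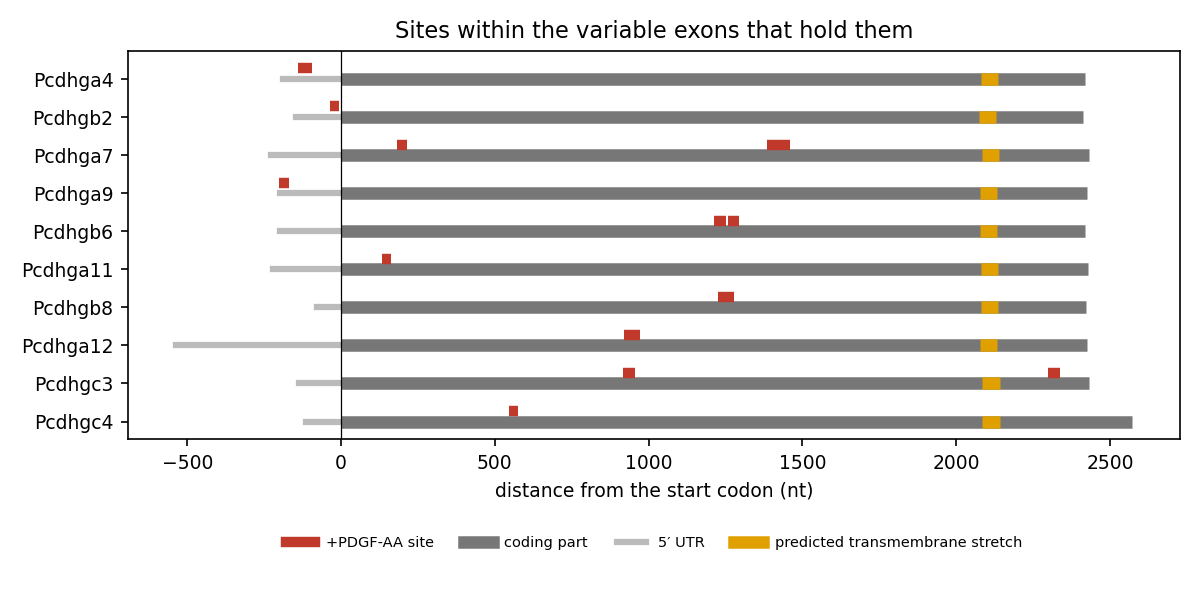
Sites within the 10 variable exons that hold them. The horizontal axis is the distance in nt from the start codon, thin light bars are 5′ UTRs, thick grey bars the coding part up to the 5′ splice site, yellow the predicted transmembrane stretch, and red bars the +PDGF-AA sites. No -PDGF-AA site lies in a variable exon. All but 1 of the coding sites, the second of Pcdhgc3, lie before the transmembrane stretch, as does most of the coding part.

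Variable exons of the cluster are copies of one another, so sites in different exons can fall at the same place of the protein. When the 22 encoded proteins were aligned, 3 of 42 pairs of coding sites in different exons shared alignment columns. How many pairs would do so from the widths of the sites alone was not computed. The Pcdhgb8 site shared 10 columns with the first Pcdhgb6 site and 6 with the second, and the Pcdhga12 and Pcdhgc3 sites that start at residues 308 and 307 shared 8 columns. The likeness also bears on how far reads can be told apart. Of the 14 exonic sites, 6 had a match of at least 80% identity in another protocadherin exon among the 58 alpha, beta and gamma exons compared. The closest was the first Pcdhga7 site, 93.9% identical to a stretch of Pcdhga3 and with 9 exons at or above that level of 80%. The Pcdhb21 site was 93.8% identical to a stretch of Pcdhb15 and had 18 such exons. The Pcdhga11 site was 93.3% identical to a stretch of Pcdhga8. Every 25-nt word within the 16 +PDGF-AA sites nevertheless occurred once in the genome. Reads shorter than such a word, or reads with mismatches, could still be placed on another exon, and their part in these sites was not tested.

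Without ligand, the sites lay between variable exons. Reading from the 5′ end, a site at chr18:37846380-37846452 lay 1314 nt before Pcdhga7, a second at chr18:37852840-37852908 lay 506 nt before Pcdhgb4, and the third was the position before Pcdhga9 described above. All 3 were in RNA that is intronic for the genes upstream and lay upstream of an alternative first exon. The next sites, at chr18:37930987-37931046 and chr18:37931048-37931104, were adjacent and lay in the long stretch between Pcdhga12 and Pcdhgc3, 8417 and 8359 nt before the Pcdhgc3 exon. The last 3, at chr18:37945971-37946046, chr18:37946366-37946478 and chr18:37946696-37946767, lay between Pcdhgc3 and Pcdhgc4, 2425, 1993 and 1704 nt before the Pcdhgc4 exon. These 3 fall inside the span of 1 annotated Pcdhgc3 transcript that stops early, after its stop codon, so that they count as 3′ UTR if the introns of that transcript are counted as part of it, and as intron if they are not.

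The sequence of the 8 sites fell into a pair of kinds. The 3 before Pcdhga7, Pcdhgb4 and Pcdhga9 were 98.6%, 97.1% and 89.6% purine. The other 5 each held an uninterrupted tandem CA run of at least 12 nt, the longest being 27 nt, in the second of the adjacent sites. A CA run of that length was present in 16.8% of all -PDGF-AA sites. In the +PDGF-AA list none of the cluster's 16 sites had such a run, beside 1.20% of all sites of that list. The 16 sites were 33.3 to 91.4% purine, and the single one above 85% purine was the intronic site shared with the -PDGF-AA list. How many of all sites of either list are this rich in purines was not computed. The hexamer GAAGAA, searched on the transcribed strand, was in 3 of 16 +PDGF-AA sites, beside 19.9% of all sites of that list, and in 2 of 8 -PDGF-AA sites, beside 11.2% of all sites of that list. Median GC content was 56.4% over the +PDGF-AA sites, beside 56.5% over all sites, and 50.0% over the -PDGF-AA sites, beside 57.9% over all sites.

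**Figure D3:**
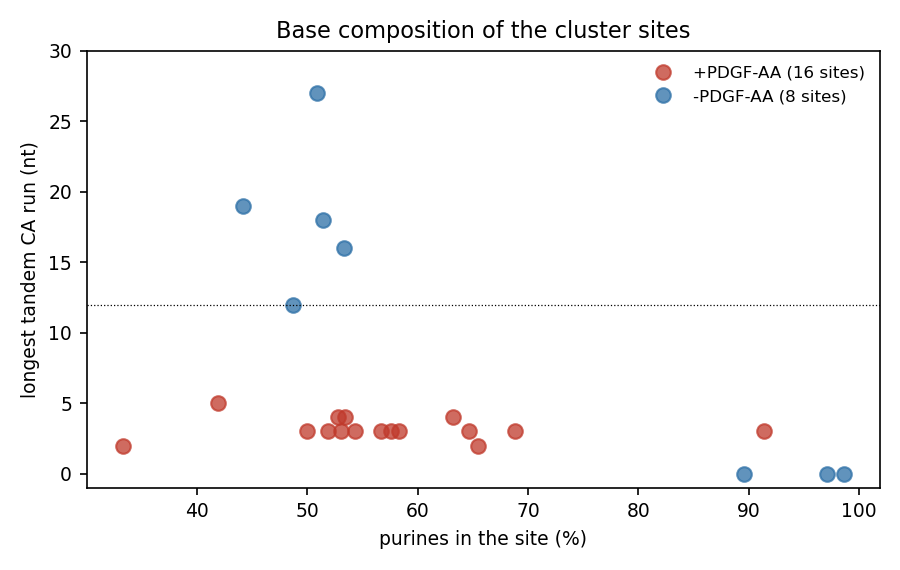
Base composition of the cluster sites. Each point is a site, with the share of purines on the horizontal axis (%) and the longest tandem CA run on the vertical axis (nt), in red for 16 +PDGF-AA sites and blue for 8 -PDGF-AA sites, and the dotted line marks a run of 12 nt. The 5 points on or above the line and the 3 points at the lower right with no CA run are -PDGF-AA sites, and the +PDGF-AA sites have runs of at most 5 nt.

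The sites without ligand were also less distinct in the genome. All 16 +PDGF-AA sites, but 1 of 8 -PDGF-AA sites (the shared one), were made only of 25-nt words that occur once in GRCm39. Words were not counted for the other sites of either list, so whether these shares are unusual is not known. In the second adjacent site none of the 33 words was found once, and the site before Pcdhga7 had 36.7% of its words found once. According to its methods, the study removed reads that matched repetitive elements before alignment. In its own accounting that step took reads from the +PDGF-AA library and from the second -PDGF-AA library and none from the first, and its part in the CA-run sites was not tested.

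A +PDGF-AA site on the plus strand outside the gamma genes, at chr18:37775793-37775849, lay wholly opposite coding sequence of Taf7, a subunit of the general transcription factor TFIID that is encoded on the minus strand, with all 57 nt facing it. The -PDGF-AA list had a Taf7 site on the minus strand at chr18:37775809-37775842, and its 34 nt lay entirely inside the +PDGF-AA site, on the opposite strand. The +PDGF-AA list had no Taf7 site there. Whether reads of Taf7 RNA entered the plus-strand peak was not tested.

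The deposited names did not follow these positions. Every one of the 194 +PDGF-AA rows and 151 -PDGF-AA rows carried the name Gm42416, and none of the 9 gamma gene names among the members was given as a gene name in any row. Gm42416 is a readthrough gene that spans 887.0 kb (chr18:37085794-37973253), from the alpha cluster through the gamma cluster, and the same identifier is called Pcdha4b in the newer annotation. No site overlapped an exon of that gene, and all 28 exonic +PDGF-AA intervals lay in an exon of another gene. The gamma names appear only in the peak names of the caller, which reported the same site under several of the genes whose spans contain it. Rows therefore outnumbered sites by 12.1 to 1 with PDGF-AA and by 18.9 to 1 without ligand.

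**Figure D4:**
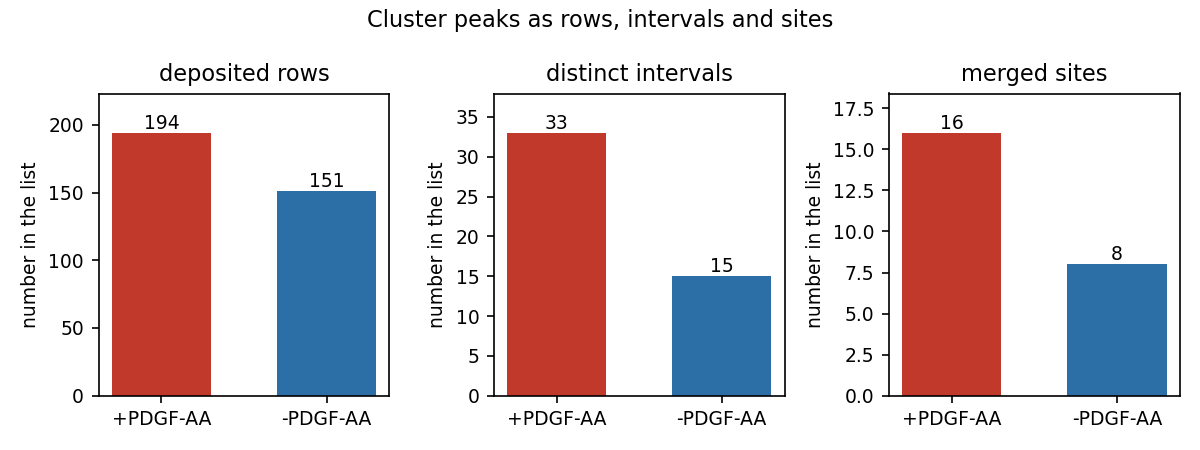
Peaks of the cluster counted as deposited rows, distinct intervals and merged sites, with +PDGF-AA in red (left) and -PDGF-AA in blue (right) and the number in the list on each vertical axis. The bars fall to 16 and 8 sites, and the +PDGF-AA count is the higher of the pair on every scale.

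Of the cluster's intervals, 30 of 33 in the +PDGF-AA list (90.9%) and 14 of 15 in the -PDGF-AA list (93.3%) stood in more than 1 row, beside 1.26% and 1.33% of all intervals of the +PDGF-AA and -PDGF-AA lists. The cluster made up 161 of 239 surplus +PDGF-AA rows (67.4%) and 136 of 211 surplus -PDGF-AA rows (64.5%). The calls for one site also differed in their edges. With PDGF-AA 27 of 33 cluster intervals overlapped another interval, beside 2.74% over the list, and without ligand 12 of 15 did, beside 2.30% over the list. Up to 4 intervals made up 1 +PDGF-AA site, as at the first Pcdhgc3 site, and up to 3 made up 1 -PDGF-AA site.

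Counted by rows, the cluster ranked 1 of 4490 genes with PDGF-AA and 1 of 3584 without ligand. Counted by sites, it ranked 7 with PDGF-AA, tied with 1 other gene, and 30 without ligand, within 14 genes of equal count. These ranks set all sites named Gm42416, over a span of many genes, against the sites of other gene names. By own exon, no single gamma gene held more than 2 sites. The cluster had more sites after PDGF-AA, 16 against 8 without ligand, as did 50.4% of all 5367 bound genes. Of the 2707 genes with sites in both lists, 25.3% had at least 2 times as many after PDGF-AA. The 16 include the Pcdhb21 site and the site opposite Taf7, which lie upstream of Pcdhga1. Reaching 2 times as many depends on counting them.

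Among the members, Pcdhga9 was the only gamma gene whose own variable exon held a site, and that site was not called under Pcdhga9. The variable exons of the other 8, Pcdhga1, Pcdhga2, Pcdhga8, Pcdhga10, Pcdhgb1, Pcdhgb4, Pcdhgb5 and Pcdhgb7, held none in either list. Their names nevertheless stood in the caller's peak names: Pcdhga1 and Pcdhga2 each in 10 +PDGF-AA and 8 -PDGF-AA rows, Pcdhgb1 in 9 +PDGF-AA and 8 -PDGF-AA rows, and Pcdhgb4 and Pcdhga8 each in 10 +PDGF-AA and 6 -PDGF-AA rows. The name Pcdhgb5 stood in 7 +PDGF-AA and 6 -PDGF-AA rows, Pcdhga10 in 6 +PDGF-AA and 5 -PDGF-AA rows, and Pcdhgb7 in 4 +PDGF-AA and 5 -PDGF-AA rows. A name in a peak thus did not mean that the exon of that gene was bound. Pcdhga9 stood in 8 +PDGF-AA rows and 5 -PDGF-AA rows. The genes whose exons were bound but that are not among the names given by the rule were Pcdhga4, Pcdhga7, Pcdhga11, Pcdhga12, Pcdhgb2, Pcdhgb6, Pcdhgb8, Pcdhgc3 and Pcdhgc4.

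The caller's names covered 25 genes with PDGF-AA and 23 without ligand. They included 3 readthrough genes, Gm42416, Gm38666 and Gm37388, under which all 16 +PDGF-AA and all 8 -PDGF-AA sites were called. Each -PDGF-AA site was called under every protein-coding gene whose span contains it, from 11 genes at the site before Pcdhga7 to 23 at the last 3 sites. In the +PDGF-AA list this held for 10 of 16 sites. The other 6 were called under some of the spanning genes. These 6 sites were 29 to 36 nt wide, and the 10 called under all spanning genes were 32 to 93 nt wide, so the ranges overlap. The first Pcdhga7 site was called under the 3 readthrough genes alone, out of 12 spanning genes. The Pcdhga9 site was called under 5 of 16, the Pcdhga11 site under 8 of 20 and the Pcdhgc4 site under 9 of 24. Of 14 exonic +PDGF-AA sites, 11 were called under the gene whose exon holds them, and the exceptions were the first Pcdhga7 site and the sites of Pcdhga9 and Pcdhga11.

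**Figure D5:**
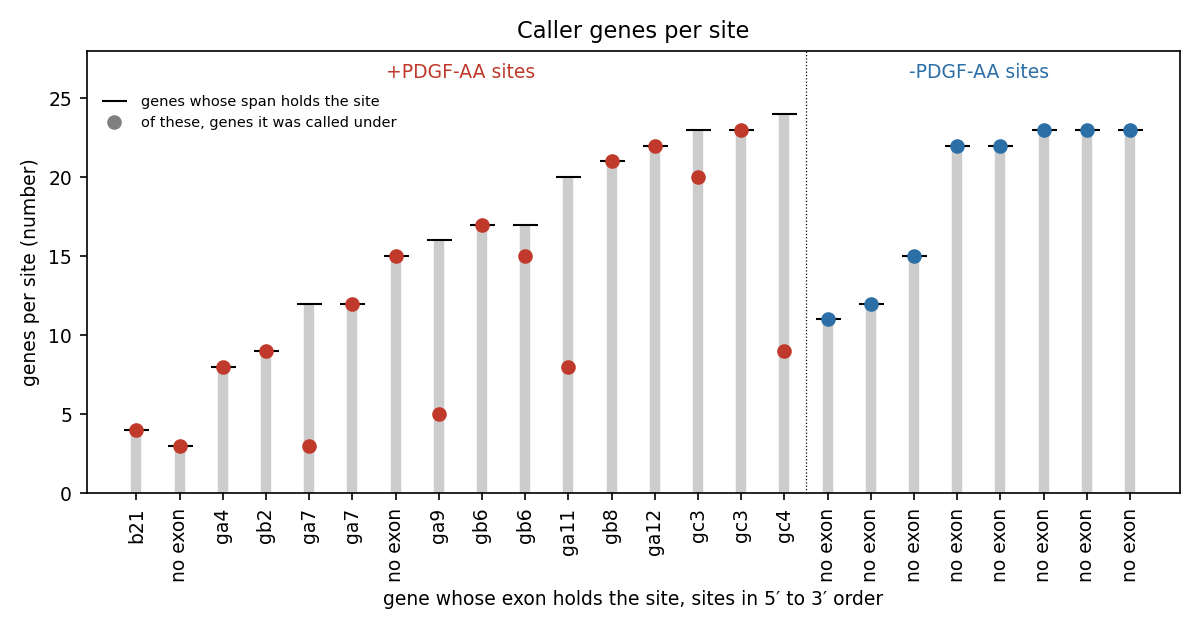
Caller genes per site. For each site, in 5′ to 3′ order within the +PDGF-AA list (red, left) and the -PDGF-AA list (blue, right), the black tick is the number of protein-coding genes whose span holds the site and the dot the number of these that it was called under; labels give the gene whose exon holds the site, with Pcdh left out. All 8 blue dots sit on their ticks, from 11 to 23 genes, and 6 red dots lie below theirs.

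The neighboring clusters were looked at only through the peaks selected by name, all of which carried Gm42416. Among these, no site of either list lay in an exon of the 14 alpha protocadherin genes. Of the 22 beta genes, Pcdhb21 held 1 +PDGF-AA site, at chr18:37648237-37648268, and no -PDGF-AA site. Peaks under other gene names were not searched for alpha or beta exons, so whether those clusters were bound elsewhere is not known.

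Among 12 non-clustered protocadherins, which are single genes elsewhere in the genome, 4 had a site with PDGF-AA and 4 without ligand, 3 of them in both lists. Of the 5 that had a site in either list, 4 thus had one with PDGF-AA and 4 without ligand, beside 83.7% with PDGF-AA and 66.8% without ligand over all 5367 genes bound in either list. Pcdh19, in which mutations cause a female-limited epilepsy in people, had 4 +PDGF-AA sites and 5 -PDGF-AA sites. Pcdh7 had 2 +PDGF-AA and 3 -PDGF-AA sites, and Pcdh9 had 2 +PDGF-AA and 5 -PDGF-AA sites. The sums over the 12 genes were 9 +PDGF-AA sites and 14 -PDGF-AA sites, which is the other direction from the gamma cluster. They rest on 5 bound genes, with the largest difference in Pcdh9. Of these 5 genes, 1 had more sites with PDGF-AA, beside 50.4% of all 5367 bound genes. The 2 gene lists below went both ways, with sums of 12 and 5 sites for promoter choice and chromatin and 9 and 14 for processing and partners.

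Of 12 genes for promoter choice and chromatin at the clusters, 9 had a site in either list, 7 of them with PDGF-AA and 4 without ligand, beside the same 83.7% with PDGF-AA and 66.8% without ligand over all bound genes. Setdb1, a histone H3 lysine methyltransferase, and Wiz, a zinc-finger partner of another such enzyme, each had 3 +PDGF-AA sites and 0 -PDGF-AA sites. Ctcf, the DNA-binding protein that loops enhancers to protocadherin promoters, had 1 site in each list. Of 14 genes for proteolytic processing and binding partners, 7 had a site in either list, 6 with PDGF-AA and 6 without ligand, 5 of them in both. Ptk2 and Ptk2b, the kinases FAK and Pyk2 that gamma protocadherin tails bind, had 2 and 2 sites with PDGF-AA and 4 and 6 without ligand.

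Among the 5 genes closest to the cluster in their numbers of sites, by the distance between log2 of sites plus 1 in the 2 lists, were Hspg2, Ahnak, Ltbp2 and Actn1. Hspg2, the basement membrane proteoglycan perlecan, had 15 +PDGF-AA and 11 -PDGF-AA sites, and Ahnak, a giant scaffold protein, had 14 +PDGF-AA and 11 -PDGF-AA sites. Ltbp2, a microfibril-associated matrix protein, had 13 +PDGF-AA and 6 -PDGF-AA sites, and Actn1, an actin crosslinker, had 11 +PDGF-AA and 9 -PDGF-AA sites. Each of these 4 had as many rows as sites in both lists, unlike the gamma cluster.

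The lists of peaks deposited as particular to one condition are particular by gene: none of the 1783 genes of the +PDGF-AA one and none of the 877 genes of the -PDGF-AA one had a row in the full list of the other condition. Since all rows of the cluster share the name Gm42416, which is in both full lists, these lists hold none of them. By position, 15 of 16 +PDGF-AA sites and 7 of 8 -PDGF-AA sites had no overlapping site in the other full list.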

How the data were processed

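The 2 full peak lists analysed were made by the authors from eCLIP libraries of iMEPM cells. According to the methods and the submitters' processing notes, adapters were trimmed with cutadapt 1.18, reads matching repetitive elements were removed, the remainder was aligned to GRCm39 with STAR 2.7.9 and GENCODE M26, and omniCLIP peaks were called once per condition and annotated with RCAS. The notes also name GRCm38. The deposited values are intervals without a score or count, so they were used as positions. Input and IgG libraries were not analysed here.

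Identical intervals were counted once, and intervals overlapping by at least 1 nt on one strand were merged into sites. Sites were assigned to the GENCODE M39 exon (transcript with the longest coding sequence) that held most of their nucleotides, and M39 exons can differ from those of M26. Proteins were aligned with MAFFT 7.526, identity was found with edlib 1.3.9.post1, and words of 25 nt were counted on both strands of GRCm39. Merging and overlap were tested on simulated intervals.

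All members, and the alpha, beta and gamma genes that intervals fell in, are named, with the 5 genes nearest in site counts (1 of which is not reported here) and listed pathway genes with at least 3 sites (Ctcf was added after its values were seen). Members and lists were chosen with earlier results of these data known. Sequences of the sites are not printed.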

Additional observations from a re-analysis of the deposited data

How the results depend on the processing

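Of 46 recomputed counts, 40 stayed within 1.5 times the values above. Some of these could not move. Leaving out sites under 20 nt removed none, since the narrowest was 29 nt wide, and a shift of 1 nt cannot change the number of merged sites. Others compared a count of 0 with 0. The 40 is therefore not a measure of robustness. Deposited rows in place of distinct intervals gave 194 with PDGF-AA and 151 without ligand, and sites without merging were 33 with PDGF-AA and 15 without ligand. Intervals overlapping an exon of a gamma gene, whatever their name, numbered 27 with PDGF-AA and 0 without ligand. The 28 exonic +PDGF-AA intervals outside Gm42416 exons became 14 sites once merged. The counts in variable exons, in constant exons and in no exon did not move with any overlap, the midpoint, a shift of 1 nt or the exons of all transcripts. Neither list can be split by library, so leaving out a replicate was not possible. No paired analysis was possible because peaks were called once per condition and 1 library carries the +PDGF-AA list. A site absent from a list may lie below the caller's threshold, and without read counts the depth behind a missing site is unknown.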
